A study of Mus musculus with 40 samples.

Results

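The genes described here encode the machinery that segregates chromosomes: kinetochore proteins, spindle motors, the mitotic kinases, the spindle checkpoint and the anaphase-promoting complex (APC). They were chosen by name from the RNA table, which was searched for centromere proteins (Cenp), kinesins (Kif), Aurora and Polo-like kinases, Bub and Mad checkpoint genes, Anapc, Haus and Tubgcp genes, and Ndc80, Nuf2, Spc24, Spc25, Incenp, Birc5 and Tpx2. A locus was kept where it overlapped the named gene on the same strand, with no use of its values. This gave 79 of the 15023 named loci, from a table of 38540 loci, and each stood for a different gene. The names also matched 39 loci that lay beside the gene or on its other strand, which were left out. The label fits most members, but 19 are kinesins of cargo transport or of no division role named here. A further 4 (Aurkaip1, Cenpj, Cenpv and Plk1s1) matched by name and were placed in no division group here, which does not say that they have no role in division.

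RNA was measured in 11 low-input libraries of germinal-vesicle oocytes, the fully grown oocytes that wait in prophase of meiosis, pooled at 100 to 200 per sample from mice aged 22 to 25 days. There were 3 control libraries with the title prefix GKAO, 3 libraries with a conditional knock-out of G9a (G9a cKO, also GKAO), 3 controls with the prefix GKAQ and 2 libraries with a conditional knock-out of both G9a and Glp (G9a-Glp cDKO, also GKAQ). G9A and GLP are the partner enzymes that dimethylate histone H3 at lysine 9, the mark H3K9me2. H3K9me2 was measured by native chromatin immunoprecipitation in 2 libraries each of control, G9a cKO and cDKO oocytes. The labels say that these are conditional alleles. The RNA control titles read "WT" and the H3K9me2 control titles "Control". The Cre driver, the alleles that the controls carried and the mouse strain are not given in the sources used here. Nothing in the labels says that the pools of a group came from separate mice, so p-values measure only the spread between these pools.

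A germinal-vesicle oocyte stores the transcripts that it will use in its meiotic divisions, when transcription is off. At each division, kinetochores form on centromeric chromatin, the Ndc80 complex binds microtubule ends, and the spindle checkpoint holds the APC inactive until chromosomes are attached. Mouse oocytes build the spindle without centrioles, from many microtubule organizing centres, with the help of kinesins, augmin and Aurora kinases.

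The 11 RNA libraries were scaled to totals of 1458868 to 2399680 reads. All 12 oocyte markers examined were at 10 RPM (reads scaled to 1000000) or more. Their levels were not equal between groups. At an adjusted p under 0.05 in limma, 4 of the 12 differed in G9a cKO, 8 in cDKO and 6 between the control groups. The shares of loci of at least 10 RPM were 5.22%, 15.8% and 14.8%. The granulosa or cumulus list was near its floor, with 2 of 13 matched genes at 10 RPM or more (Cyp19a1 and Nr5a2), Foxl2 at 0 to 4 reads and Amh at 0 to 5 reads in every library. Of the other list members, Inha, a subunit of inhibin, had a mean of 2.14 RPM in GKAQ controls and 8.46 RPM in cDKO (adjusted p = 0.00472, at most 17 reads in a library), and Fshr, the receptor for follicle-stimulating hormone, 1.86 and 7.22 RPM (adjusted p = 0.0300, at most 16 reads). The list's summed level was 188.5 to 200.4 RPM in GKAO controls, 142.8 to 169.3 RPM in G9a cKO, 137.6 to 171.7 RPM in GKAQ controls and 128.0 to 146.3 RPM in cDKO. Theca or stroma genes summed to 5.00 RPM at most and the 2 matched blood or immune genes to 4.10 RPM at most, while Pecam1, the only endothelial marker matched, had 74.2 to 119.9 RPM over all groups. The part of these in the results below was not tested. The targeted genes went with the labels except in 1 library. Ehmt1, which encodes GLP, had 144, 164 and 173 reads in GKAQ controls and 31 and 36 reads in cDKO (log2 fold change, called log2 change from here on, −2.06, standard error 0.20, adjusted p = 1.09e-21). Ehmt2, which encodes G9A, had only 12, 13 and 9 reads in GKAO controls and 5, 11 and 2 reads in G9a cKO (adjusted p = 0.0971), so the library labelled G9a cKO replicate 2 lay within the control range. Its log2 change was −1.55 (standard error 0.51), and in cDKO, with 5 reads in each library, it was −1.45 (standard error 0.57, adjusted p = 0.121).

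The members fall into 11 kinetochore genes of the inner, centromere-bound layer and 6 of the outer, microtubule-binding layer, 5 checkpoint genes, 5 genes of the Aurora kinases and the chromosomal passenger complex, and 2 Polo-like kinases. Further members are 8 APC subunits, 10 kinesins of the spindle and of cytokinesis, Tpx2, 5 augmin subunits, 3 gamma-tubulin complex proteins and the 23 others named above. The 10 kinesins include Kif4-ps, a pseudogene by its symbol. Reads were found widely: 67 of the 79 had a mean of at least 10 RPM, against 46.2% of all named loci. The 12 below that were Cenpi, Cenpw, Kif15, Kif19a, Kif1a, Kif21a, Kif27, Kif3c, Kif4-ps, Kif6, Mad2l1bp and Plk2. In all 11 libraries Kif19a, Kif3c and Kif6 had at most 3 reads, so no fold is given for them. A total of 25 members overlap a locus on the other strand, and whether counting used the strand is not given in the sources used here.

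In RefSeq's table of promoters (GRCm38.p6, 250 bases before to 50 after each start), 66 members had an entry. For 55 of them the RefSeq start lay within 1000 bases of the 5′ end of the locus. For the other 11 the locus began elsewhere. The Bub1b locus began 6187 bases upstream of the RefSeq start, Bub1 9309, Haus7 5047, Cenpj 4795 and Kif2c 3873 bases upstream, while the Kif3c locus began 30057 bases downstream. Promoter sequence was therefore read only for the 55. The 150 bases before the start are given for Cenpe, Kif23, Spc25 and Kif22, and for the transport kinesin Kif5c as a contrast in role only. The RNA of each of them, Kif5c included, differed in the tests that follow. Capitals mark, on either strand, CCAAT, the box bound by NF-Y, and TTTGAA, the cell cycle genes homology region through which many division genes are held silent in resting cells. Cenpe lies at chr3:135212413-135212562 (plus strand), Kif23 at chr9:61946800-61946949 (minus), Spc25 at chr2:69206214-69206363 (minus), Kif22 at chr7:127042421-127042570 (minus) and Kif5c at chr2:49619136-49619285 (plus).
Cenpe: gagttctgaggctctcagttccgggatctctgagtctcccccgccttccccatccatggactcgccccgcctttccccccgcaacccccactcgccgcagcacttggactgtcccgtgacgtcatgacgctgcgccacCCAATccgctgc
Kif23: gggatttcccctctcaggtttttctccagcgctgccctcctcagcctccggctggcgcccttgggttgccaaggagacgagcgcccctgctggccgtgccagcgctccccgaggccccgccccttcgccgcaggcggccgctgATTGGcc
Spc25: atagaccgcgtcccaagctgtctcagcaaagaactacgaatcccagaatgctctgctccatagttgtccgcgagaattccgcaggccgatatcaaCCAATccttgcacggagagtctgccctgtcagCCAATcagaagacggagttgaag
Kif22: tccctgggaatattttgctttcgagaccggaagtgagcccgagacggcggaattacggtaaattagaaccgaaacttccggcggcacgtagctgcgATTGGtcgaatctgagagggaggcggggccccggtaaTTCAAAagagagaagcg
Kif5c: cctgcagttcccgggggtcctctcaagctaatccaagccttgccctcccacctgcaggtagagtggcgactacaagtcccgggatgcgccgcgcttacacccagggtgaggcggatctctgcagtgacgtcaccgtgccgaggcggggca

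Over the whole 300-base window and both strands, TTTGAA was in 15 of the 55 promoters (27.3%). All 15 belonged to the 41 members placed in a division group (36.6%), and 0 of 12 other kinesins had it. The share was 17.9% of all 32817 promoters in the table and 11% of the 4034 genes of at least 10 RPM with a start near their locus. In Kif23 and Spc25 the match lies just after the start, outside the printed stretch. CCAAT was in 28 of the 55 (50.9%), against 37.4% of all promoters and 40.8% of those of at least 10 RPM. TTCGAA, a variant of the first element, was in 1 of the 55 (1.82%, against 1.56% of all), and TATAAA in 3 (5.45%, against 13.6% of all). Of the 8 promoters of called members among the 55, 3 held TTTGAA and 4 held CCAAT. Those with a match are all among the printed ones (Cenpe, Kif23, Spc25 and Kif22). The promoters of Anapc1, Plk2, Tubgcp5 and Kif5c, which were also called, held neither. The members' promoters had a median GC content of 61.3%, against 52.7% over all promoters and 62.0% over those of at least 10 RPM. A match is only a run of letters in this window.

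Few of these transcripts were called in G9a cKO and more in cDKO. In G9a cKO 2 of 79 members were called, which here means an adjusted p under 0.05 in a limma fit over all loci. That is 2.53% of members, against 1.79% of all loci and 5.22% of loci of at least 10 RPM. In cDKO 13 were called (16.5%), 6 higher and 7 lower, against 6.34% of all loci and 15.8% of loci of at least 10 RPM, where 8.63% were called higher and 7.18% lower. These shares lie near the background of detected loci. The median log2 change of the 79 was −0.08 in G9a cKO and 0.02 in cDKO, beside 0.01 and 0.05 over loci of at least 10 RPM. At an unadjusted p under 0.05 in the limma fit there were 14 of 79 members in G9a cKO and 26 in cDKO. The same held for 1926 and 2901 of the 9091 loci of at least 10 RPM. Of all 2444 loci called in cDKO, 1665 were higher, but 53.1% of those called were higher with each library centred on its detected loci. With that centring, the cDKO calls among members were 5 higher and 11 lower. All of these calls rest on how the variance was modelled: without its trend with level and without robust moderation, limma called 0 members in either mutant, with 6 and 15 at an unadjusted p under 0.05, and with log2(RPM + 1) it called 0 in G9a cKO and 5 in cDKO. Fewer cells of a type and less RNA per cell cannot be told apart in pooled oocytes.

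**Figure D1:**
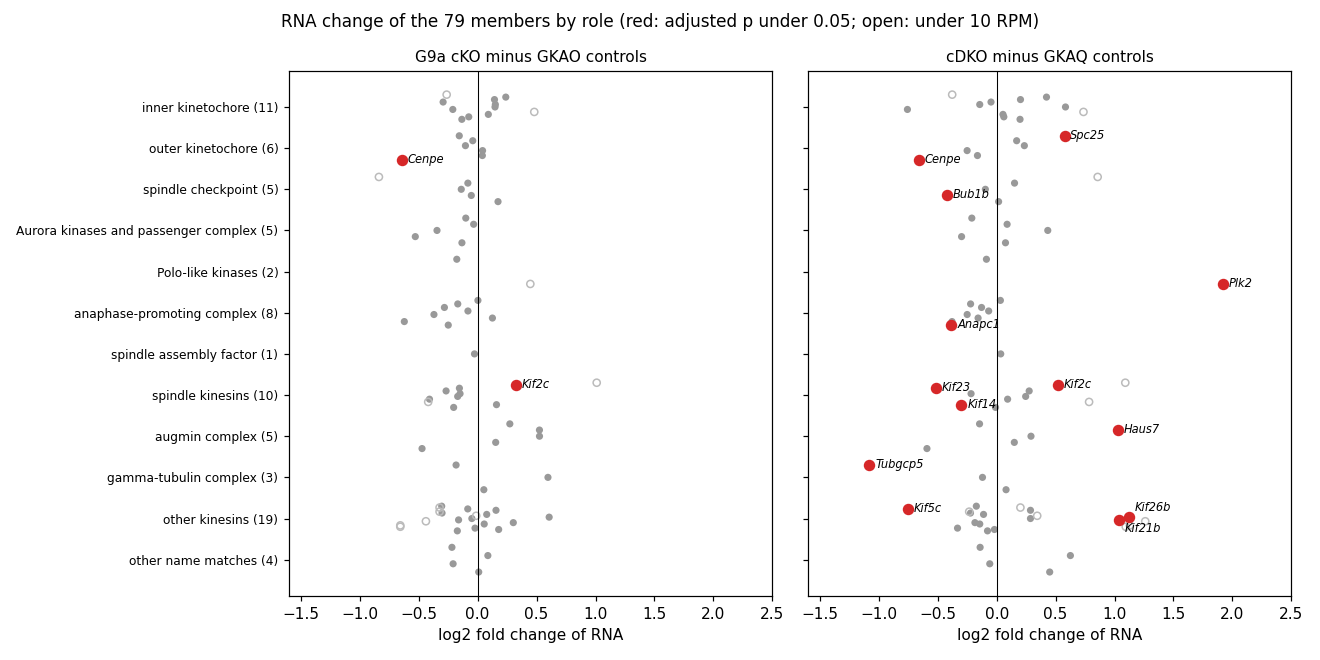
Log2 change of RNA (horizontal axis) for each of the 79 members, in rows by role, for G9a cKO against GKAO controls (left) and cDKO against GKAQ controls (right). Red points are called (2 on the left, 13 on the right), grey points are not, and open points have a mean under 10 RPM.

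The outer kinetochore held the member that was lower in both mutants. Cenpe encodes the kinesin motor that carries chromosomes along microtubules to the spindle equator (ENSMUSG00000045328, chr3:135212516-135273540, plus strand). Its RNA was 718, 656 and 808 RPM in GKAO controls and 514, 413 and 470 RPM in G9a cKO. It was 855, 876 and 910 RPM in GKAQ controls and 523 and 590 RPM in cDKO. Every mutant library was below every control library of its own prefix, and also below every control of the other. The log2 change was −0.64 (standard error 0.07, adjusted p = 1.92e-17) in G9a cKO and −0.66 (standard error 0.08, adjusted p = 3.46e-15) in cDKO. The difference between the effects was −0.02 (standard error 0.10, adjusted p = 0.914). Leaving out the library labelled G9a cKO replicate 2, the G9a cKO value was −0.56 (standard error 0.08, adjusted p = 8.05e-10).

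**Figure D2:**
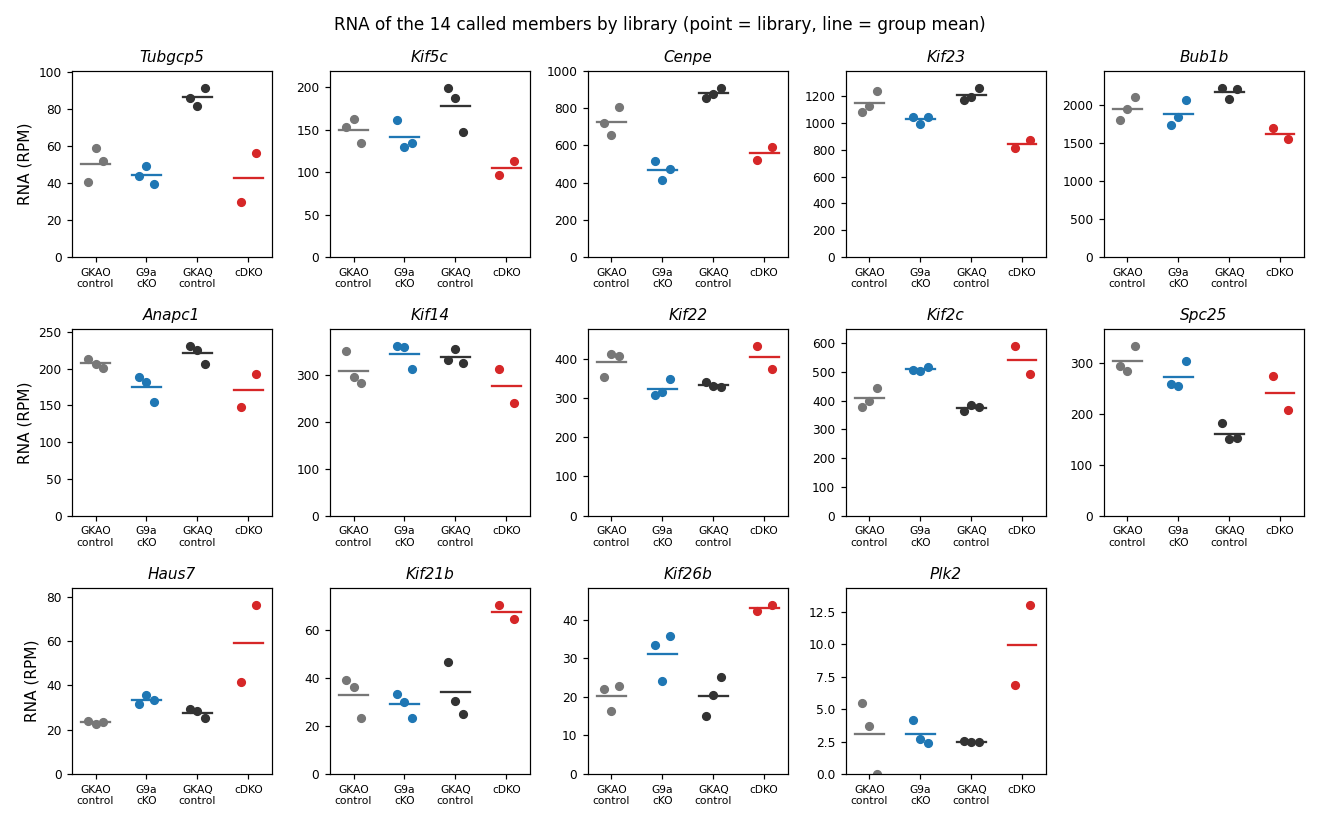
RNA in RPM (vertical axes, each from 0) of the 14 members called in a mutant or for the difference between the effects, in each of the 11 libraries. Points are libraries and lines are group means. Cenpe is low and Kif2c high in both mutants, whereas Bub1b, Kif23 and Kif5c are low in cDKO.

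Spc25, a subunit of the Ndc80 complex, was higher in cDKO, but its control groups differed more. It had 182, 150 and 152 RPM in GKAQ controls and 276 and 208 RPM in cDKO, a log2 change of 0.58 (standard error 0.11, adjusted p = 3.26e-05). GKAO controls had 295, 285 and 334 RPM and G9a cKO 260, 256 and 305 RPM (log2 change −0.16, adjusted p = 0.269). Both cDKO libraries thus lay above their own controls and below all GKAO controls. Against all 6 controls as a single group the log2 change was 0.12 (standard error 0.35, adjusted p = 0.887), and without cDKO replicate 1 it was 0.37 (adjusted p = 0.106). Cenpf, a large kinetochore protein, was not called in G9a cKO (log2 change 0.04) or cDKO (−0.16, adjusted p = 0.0677). Ndc80, Nuf2 and Spc24 were not called in either mutant.

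No inner kinetochore gene of the 11 was called in a mutant in the limma fit (1 in G9a cKO and 2 in cDKO had an unadjusted p under 0.05), and their median log2 changes were 0.09 in G9a cKO and 0.06 in cDKO. Cenpn, which reads the centromeric nucleosome, had 155, 148 and 145 RPM in GKAO controls and 111, 121 and 134 RPM in G9a cKO (log2 change −0.29, standard error 0.12, adjusted p = 0.23). In cDKO it had 153 and 175 RPM, beside 166, 173 and 169 RPM in the controls. Cenpa, the histone H3 variant that marks the centromere, had log2 changes of −0.13 in G9a cKO and 0.20 in cDKO (adjusted p = 0.67 and 0.59). It was singled out after its values were seen. Cenpk, of the same layer, had 32.1, 39.6 and 47.8 RPM in GKAQ controls and 18.2 and 29.6 RPM in cDKO (log2 change −0.76, standard error 0.30, adjusted p = 0.119).

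Of the spindle checkpoint genes, Bub1b was lower in cDKO. It encodes BUBR1, the checkpoint protein that binds and inhibits the APC (ENSMUSG00000040084, chr2:118592024-118641591, plus strand). GKAQ controls had 2225, 2072 and 2204 RPM and cDKO 1691 and 1547 RPM. GKAO controls had 1807, 1945 and 2102 RPM and G9a cKO 1733, 1842 and 2068 RPM. The cDKO libraries lay below all others, while the G9a cKO and GKAO control values overlapped. The log2 change was −0.42 (standard error 0.05, adjusted p = 2.60e-14) in cDKO and −0.05 (standard error 0.04, adjusted p = 0.388) in G9a cKO, and the difference of −0.37 (standard error 0.07) was called (adjusted p = 3.83e-05). With all 6 controls as a single group the cDKO value was −0.34 (adjusted p = 1.18e-06). Bub1, Mad1l1 and Mad2l1 had log2 changes from −0.14 to 0.17 in both mutants and were not called. The fifth checkpoint member, Mad2l1bp, which helps silence the checkpoint, had 2 to 14 reads per library and log2 changes of −0.84 (standard error 0.55, adjusted p = 0.271) and 0.86 (standard error 0.61, adjusted p = 0.565).

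The Aurora kinases, which correct attachments and organize the spindle, were not called in either mutant, nor were their partners Incenp and Birc5 (1 of the 5 in G9a cKO and 2 in cDKO had an unadjusted p under 0.05 in the limma fit). Aurka had 376, 381 and 377 RPM in GKAO controls and 339, 327 and 369 RPM in G9a cKO, and 329, 298 and 300 RPM in GKAQ controls beside 338 and 312 RPM in cDKO. Its log2 changes were −0.13 (adjusted p = 0.271) and 0.07 (adjusted p = 0.638), and both changed sign under another choice of controls. Aurkb had 10.4 to 25.9 RPM in all libraries. Aurkc, the kinase that acts in germ cells, had 80.2, 101 and 93.8 RPM in GKAO controls and 62.6, 78.7 and 74.9 RPM in G9a cKO. In GKAQ controls it had 87.4, 68.3 and 92.7 RPM, and in cDKO 114 and 108 RPM. G9a cKO thus lay below its controls and cDKO above, with log2 changes of −0.35 (adjusted p = 0.23) and 0.43 (adjusted p = 0.117) and a difference of 0.78 (standard error 0.23, adjusted p = 0.0551) that missed the threshold. Incenp, the scaffold of the passenger complex, was also not called (log2 change −0.10 in G9a cKO, −0.21 in cDKO, adjusted p = 0.327 and 0.109).

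Among the Polo-like kinases, Plk4, which licenses centrioles, was not called (log2 change −0.18 in G9a cKO and −0.09 in cDKO). Plk2 was called higher in cDKO on very few reads. It had 4, 6 and 5 reads in GKAQ controls and 12 and 22 reads in cDKO (log2 change 1.92, standard error 0.64, adjusted p = 0.0463). The call was lost under 11 of 19 alternatives. In GKAO controls Plk2 had 8, 7 and 0 reads and in G9a cKO 10, 5 and 5 reads.

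The APC tags securin and cyclin B for destruction. Its 8 subunits matched by the name Anapc, which are a part of the complex, had median log2 changes of −0.21 in G9a cKO and −0.19 in cDKO. By sign 6 of 8 were lower in G9a cKO and 7 of 8 in cDKO, beside 4412 and 4091 of 9091 loci of at least 10 RPM. In cDKO 1 was called (12.5%, against 15.8% of loci of at least 10 RPM). A list of 9 APC subunits and partners outside the name search had median log2 changes of −0.06 in G9a cKO and 0.32 in cDKO. Of these 9, 2 were called higher and 0 lower in cDKO (22.2%). Between GKAQ and GKAO controls the 9 had a median log2 difference of −0.21. There 1 was called higher and 3 lower (44.4%, against 14.8% of loci of at least 10 RPM). The 8 Anapc subunits had a median of −0.17 between the controls, with 2 called lower. Anapc1, the scaffold subunit, had 231, 225 and 207 RPM in GKAQ controls and 147 and 193 RPM in cDKO (log2 change −0.39, standard error 0.12, adjusted p = 0.0311), a call lost under 7 of 19 alternatives. In GKAO controls it had 214, 207 and 202 RPM and in G9a cKO 188, 182 and 155 RPM (log2 change −0.25, standard error 0.11, adjusted p = 0.23). Every mutant library was below its own controls. Anapc10, which helps the complex bind its targets, had 19.2, 30.4 and 29.9 RPM in GKAO controls and 15.9, 16.4 and 18.4 RPM in G9a cKO (log2 change −0.62, standard error 0.25, adjusted p = 0.23). Anapc5, another scaffold subunit, had log2 changes of −0.17 and −0.22 (adjusted p = 0.23 and 0.238).

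Of the 10 kinesins of the spindle and cytokinesis, Kif2c was higher in both mutants. It encodes MCAK, which takes microtubules apart at centromeres and so undoes faulty attachments (ENSMUSG00000028678, chr4:117159639-117182645, minus strand). GKAO controls had 378, 400 and 446 RPM and G9a cKO 506, 503 and 519 RPM. GKAQ controls had 366, 385 and 377 RPM and cDKO 590 and 493 RPM. All 5 mutant libraries lay above all 6 controls. The log2 change was 0.32 (standard error 0.08, adjusted p = 0.00501) in G9a cKO and 0.52 (standard error 0.09, adjusted p = 5.54e-07) in cDKO, with a difference of 0.20 (adjusted p = 0.219). Without GKAO control replicate 1 the G9a cKO value was 0.27 (adjusted p = 0.0977), and leaving out the library labelled G9a cKO replicate 2 it was 0.33 (adjusted p = 0.0299).

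Kif23, a motor of the central spindle that is needed for cytokinesis, was lower in cDKO (ENSMUSG00000032254, chr9:61917275-61946908, minus strand). It had 1168, 1192 and 1262 RPM in GKAQ controls and 811 and 876 RPM in cDKO, and 1082, 1123 and 1235 RPM in GKAO controls beside 1047, 994 and 1045 RPM in G9a cKO. The log2 change was −0.52 (standard error 0.06, adjusted p = 1.00e-13) in cDKO and −0.16 (standard error 0.06, adjusted p = 0.164) in G9a cKO, and the difference of −0.36 (standard error 0.08) was called (adjusted p = 0.00417). The cDKO libraries were the lowest of all. Kif14, another kinesin of cytokinesis, had 332, 355 and 325 RPM in GKAQ controls and 312 and 241 RPM in cDKO (log2 change −0.30, standard error 0.10, adjusted p = 0.0479), a call lost under 14 of 19 alternatives.

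Kif22, a chromosome-bound motor, had opposite signs in the mutants. It had 352, 413 and 406 RPM in GKAO controls and 308, 316 and 347 RPM in G9a cKO. In GKAQ controls it had 339, 329 and 328 RPM, and in cDKO 432 and 375 RPM. Neither log2 change was called by itself (−0.27, adjusted p = 0.0831, and 0.28, adjusted p = 0.062), but their difference of 0.54 (standard error 0.13) was (adjusted p = 0.00621). With the title number that GKAO libraries share as a block, the G9a cKO change of Kif22 was called (−0.30, adjusted p = 0.0398). Tpx2, which activates Aurora A on the spindle, had 516 to 593 RPM in all 11 libraries and log2 changes of −0.03 and 0.03.

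Augmin branches microtubules and the gamma-tubulin complex starts them. In cDKO 1 of 5 augmin genes (20%) and 1 of 3 gamma-tubulin complex genes (33.3%) were called. The share was 15.8% of loci of at least 10 RPM. Haus7 had 29.5, 28.3 and 25.1 RPM in GKAQ controls and 41.6 and 76.5 RPM in cDKO (log2 change 1.03, standard error 0.25, adjusted p = 0.00206). In GKAO controls it had 24.0, 22.5 and 23.4 RPM and in G9a cKO 31.7, 35.5 and 33.4 RPM (log2 change 0.52, standard error 0.23, adjusted p = 0.23). All mutant libraries were above all controls, but without cDKO replicate 2 the cDKO value was 0.59 (adjusted p = 0.454). Tubgcp5 had 86.1, 81.7 and 91.7 RPM in GKAQ controls and 29.6 and 56.3 RPM in cDKO (log2 change −1.08, standard error 0.20, adjusted p = 1.26e-05). Its GKAO controls had 40.4, 59.2 and 52.2 RPM, which overlapped the cDKO libraries, and without cDKO replicate 1 the value was −0.62 (adjusted p = 0.154). Haus4, Tubgcp2 and Tubgcp3 were not called, with log2 changes from −0.12 to 0.60 in the mutants.

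Of the 19 other kinesins, 3 were called in cDKO (15.8%, beside 15.8% of loci of at least 10 RPM). None was called in G9a cKO, where 1 had an unadjusted p under 0.05 in the limma fit. Kif5c, a conventional kinesin that hauls cargo, had 199, 188 and 147 RPM in GKAQ controls and 96.8 and 113 RPM in cDKO (log2 change −0.76, standard error 0.14, adjusted p = 5.15e-06). It had 153, 162 and 134 RPM in GKAO controls and 161, 129 and 134 RPM in G9a cKO, which overlapped (log2 change −0.08, adjusted p = 0.648), and the difference of −0.67 was called (adjusted p = 0.0338). Kif21b was higher, with 46.5, 30.4 and 25.1 RPM in GKAQ controls and 70.6 and 64.6 RPM in cDKO (log2 change 1.04, standard error 0.24, adjusted p = 0.000847). The G9a cKO libraries had 33.4, 30.0 and 23.5 RPM beside 39.1, 36.1 and 23.4 RPM in their controls, and the difference of 1.20 was called (adjusted p = 0.0269). Kif26b had 15.1, 20.4 and 25.1 RPM in GKAQ controls and 42.1 and 43.9 RPM in cDKO (log2 change 1.12, standard error 0.28, adjusted p = 0.00209). In G9a cKO it had 33.4, 24.0 and 35.8 RPM beside 21.9, 16.2 and 22.9 RPM (log2 change 0.61, adjusted p = 0.23). Of the 4 genes matched by name but placed in no division group none was called (1 in each mutant at an unadjusted p under 0.05 in the limma fit). Cenpv had 18.2, 14.6 and 19.2 RPM in GKAQ controls and 23.3 and 30.2 RPM in cDKO (log2 change 0.63, adjusted p = 0.341).

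The difference between the cDKO and G9a cKO effects was tested directly for each member. It was called for 6 of 79 (7.59%), against 1.08% of all loci and 3.34% of loci of at least 10 RPM. These were Kif21b, Spc25 and Kif22 toward higher in cDKO and Kif5c, Bub1b and Kif23 toward lower. With precision weights in place of the variance trend limma called 0 members for the difference, with 13 at an unadjusted p under 0.05. Without cDKO replicate 1 the count was 2, and without GKAQ control replicate 1 it was 13 (16.5% of members), in a fit that called 38.2% of all loci. The other 8 members called in a mutant have no called difference, which does not show that they respond alike.

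The control groups also differed from each other. Between GKAQ and GKAO controls 19 of 79 members were called (24.1%), 11 higher in GKAQ and 8 lower, against 3.87% of all loci and 14.8% of loci of at least 10 RPM, where 7.42% were higher and 7.38% lower. Without GKAQ control replicate 3 the count was 9, and it was 12 without GKAO control replicate 1 or 2. The genes named here were chosen after their values were seen. The outer kinetochore held 5 of the 6 in its group. Spc25 was lower in GKAQ (log2 difference −0.92, standard error 0.10, adjusted p = 9.08e-17) and so was Nuf2, another Ndc80 complex subunit, with 535, 528 and 574 RPM in GKAO and 364, 389 and 382 RPM in GKAQ controls (−0.53, standard error 0.08, adjusted p = 2.41e-09). Ndc80 itself was higher, with 121, 116 and 143 RPM in GKAO and 237, 194 and 222 RPM in GKAQ controls (0.78, standard error 0.12, adjusted p = 1.14e-08). Subunits of the same complex thus differed in opposite directions between control pools.

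In the inner kinetochore Cenph and Cenpk, which sit in a shared subcomplex and both lie on chromosome 13, were higher in GKAQ controls. Cenph had 66.5, 71.7 and 70.9 RPM in GKAO and 155, 121 and 130 RPM in GKAQ controls (log2 difference 0.95, standard error 0.15, adjusted p = 1.26e-08). Cenpk had 11, 20.9 and 20.5 RPM in GKAO and 32.1, 39.6 and 47.8 RPM in GKAQ controls (1.23, standard error 0.27, adjusted p = 0.000289). The values did not overlap in either gene. Aurka, Anapc5, Anapc16, Kif20a, Kif15 and Kif21a were also lower in GKAQ, and Cenpe, Cenpf, Cenpq, Bub1b, Incenp, Kif20b, Haus6 and Tubgcp5 higher.

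**Figure D3:**
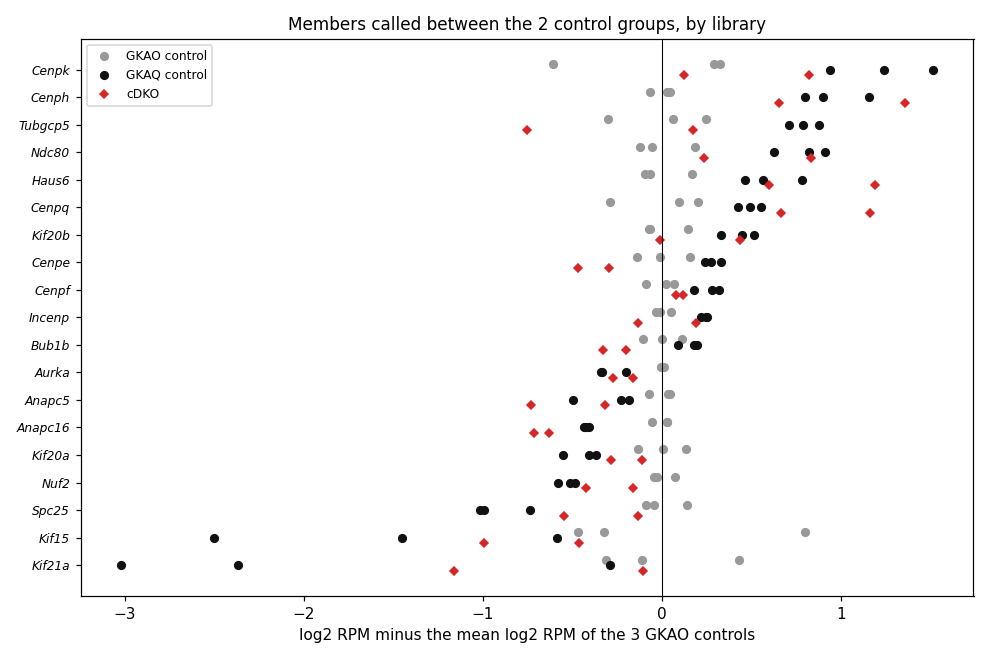
Log2 RPM of each library minus the mean log2 RPM of the 3 GKAO controls (horizontal axis), for the 19 members called between the control groups. Grey circles are GKAO controls, black circles GKAQ controls and red diamonds cDKO, which carry the GKAQ prefix. For Spc25 both cDKO libraries lie between the GKAQ and the GKAO controls.

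What the prefix stands for is not given in the sources used here, and strain, parents, date and handling cannot be told apart in it. The cDKO contrast and the control contrast share the GKAQ controls, so they are not independent of each other. The members called in both were Bub1b, Cenpe, Spc25 and Tubgcp5, which are 4 of the 13 and 4 of the 19. Each moved in opposite directions in the 2 contrasts. Against all 6 controls as a single group, the log2 change in cDKO was −0.34 for Bub1b, −0.52 for Cenpe, 0.12 for Spc25 and −0.69 (adjusted p = 0.0228) for Tubgcp5. Kif23 was −0.48, Kif5c −0.64, Kif2c 0.46, Haus7 1.15, Kif21b 1.06 and Kif26b 1.11 in the same fit. The proliferation genes Mki67 and Top2a had opposite signs in cDKO. Mki67 had a mean of 527 RPM in GKAO controls, 607 RPM in G9a cKO, 610.3 RPM in GKAQ controls and 833 RPM in cDKO (adjusted p = 1.12e-06 in cDKO). Top2a had 137, 108.8, 187 and 156 RPM in the same order and was called in neither mutant (adjusted p = 0.183 and 0.317). Their part in these differences was not tested.

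Partner genes outside the name search were read from a list of 81 symbols, of which 56 had a locus. In G9a cKO 3 of the 56 were lower and 0 higher, in cDKO 6 were higher and 5 lower, and for the difference 2 were called. These are 5.36%, 19.6% and 3.57% of the 56, near the 5.22%, 15.8% and 3.34% of loci of at least 10 RPM. Hjurp, the chaperone that loads CENP-A at centromeres, was lower in both mutants. It had 443, 424 and 461 RPM in GKAO controls and 280, 337 and 273 RPM in G9a cKO (log2 change −0.58, standard error 0.08, adjusted p = 3.13e-09). In GKAQ controls it had 544, 567 and 517 RPM and in cDKO 282 and 273 RPM (−0.96, standard error 0.09, adjusted p = 9.59e-22). All 5 mutant libraries were below all 6 controls. Hjurp was also called higher in GKAQ than in GKAO controls (0.29), and against all 6 controls its cDKO change was −0.82.

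Ckap5, a microtubule polymerase, was also lower in both, with log2 changes of −0.40 (standard error 0.10, adjusted p = 0.0113) in G9a cKO and −0.39 (standard error 0.12, adjusted p = 0.0153) in cDKO. Both calls were fragile. In G9a cKO the call was lost under 6 of 21 alternatives, among them leaving out the library labelled G9a cKO replicate 2 (adjusted p = 0.128), and in cDKO it was lost with cDKO replicate 1 or replicate 2 left out (adjusted p = 0.0546 and 0.106). Ccnb3, a cyclin of oocyte meiosis, was lower in G9a cKO, with 45.5, 39.3 and 40.5 RPM beside 76.8, 65.5 and 93.8 RPM in controls (−0.90, standard error 0.17, adjusted p = 5.87e-05). It was not called in cDKO (−0.25, adjusted p = 0.565). Pcnt, the scaffold of oocyte microtubule organizing centres, was lower in cDKO, with 1140.5 and 1128 RPM beside 1513, 1497 and 1439 RPM in its controls (−0.39, standard error 0.06, adjusted p = 1.01e-08), and its difference from the G9a cKO effect was called (−0.35, adjusted p = 0.00239). Pcnt was also called higher in GKAQ than in GKAO controls (0.25), and against all 6 controls its cDKO change was −0.26. Itgb3bp, which encodes the inner kinetochore protein CENP-R, fell in cDKO to 9.68 and 8.89 RPM from 27.0, 22.9 and 18.2 RPM (−1.27, standard error 0.32, adjusted p = 0.00323).

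The genes higher in cDKO included Cks2, a cofactor of cyclin-dependent kinases (log2 change 1.11, standard error 0.20, adjusted p = 7.61e-06). Mastl, the Greatwall kinase that drives entry into M phase, had 436 and 378 RPM beside 280, 325 and 290 RPM in controls (0.45, standard error 0.09, adjusted p = 0.000145), and its difference from the G9a cKO effect was called (0.45, adjusted p = 0.0394), a call lost under 11 of 17 alternatives. The kinetochore genes Zw10 (0.60, adjusted p = 0.00294) and Ska1 (0.48, adjusted p = 0.00387) and separase, Espl1 (0.38, adjusted p = 0.0141), were also higher. Mastl, Zw10 and Espl1 had lower values in GKAQ than in GKAO controls. Against all 6 controls as a single group they were no longer called (0.22, 0.34 and 0.13). Ska1 was called higher in GKAQ than in GKAO controls (0.44), and against all 6 controls its cDKO change was 0.71. Zw10 had 84.2, 92.9 and 84.8 RPM in GKAQ controls, 151 and 116 RPM in cDKO and 134, 121 and 122 RPM in GKAO controls, so that 1 of the 2 cDKO libraries fell below the lowest GKAO control.

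H3K9me2 was summarised as mean RPM per 10 kb window over the windows that each locus overlaps. Each library is scaled to its own reads, so the values show how its reads were spread and not how much of the mark there is. They were not corrected with the input or IgG libraries. All 79 members could be tested among 14850 named loci. In controls the members had a median of 3.44 RPM per window, against 3.79 over all tested loci, 3.56 over tested loci of at least 10 RPM of RNA and 4.03 over those below. An even spread over the genome would give 3.67. Of the 79 members, 55 (69.6%) lay below the median of all tested loci and 33 (41.8%) in the lowest 25% of them, beside 64.2% and 34.5% of loci of at least 10 RPM of RNA. The spindle kinesins had the median 3.24 and the other kinesins 3.99.

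Among single loci, Cenpj (2.28), Anapc11 (2.46) and Cenpq (2.56) were lowest in controls, and Kif1a (6.23), Kif26b (5.24) and Haus8 (5.18) highest, named after their values were seen. Kif1a had 0.571 RPM of RNA on average. Of the 14 members called for RNA in a mutant or for the difference, 8 lay below the median of all tested loci and 6 above. Among those lower in cDKO RNA, Cenpe had 3.20, Bub1b 3.27, Kif23 3.24 and Kif5c 4.02 RPM per window in controls. Anapc1 had 3.12, Kif14 3.37 and Tubgcp5 3.07. Among those higher, Kif2c had 3.22, Spc25 3.14, Kif21b 4.23, Haus7 4.38, Kif26b 5.24 and Plk2 3.81. Kif22, called only for the difference, had 3.83.

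No member was called for H3K9me2 in G9a cKO or in cDKO, and no locus of all 14850 was called (0% in each). At an unadjusted p under 0.05 in the limma fit, 17 members (21.5%) in G9a cKO and 15 (19.0%) in cDKO differed from controls, beside 24.1% and 18.5% of all tested loci. The members' median was 3.96 RPM per window in G9a cKO and 4.35 in cDKO, beside 3.80 and 4.18 over all tested loci and 3.85 and 4.28 over those of at least 10 RPM of RNA. In cDKO 68 of 79 members (86.1%) had a higher value than in controls, beside 62.8% of all tested loci and 77% of those of at least 10 RPM. Both mutants were compared with the same 2 control libraries. Cenpe had 4.15 RPM per window in G9a cKO and 4.70 in cDKO (log2 change 0.33 and 0.49, adjusted p = 0.24 and 0.21). Bub1b had 2.12 and 3.40 (−0.56 and 0.03, adjusted p = 0.31 and 0.96). The control libraries held 7048784 and 19128881 reads and the mutant libraries 1109191 to 1881848, with 2 libraries in each group, and the thinnest member had 3 reads in a library.

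**Figure D4:**
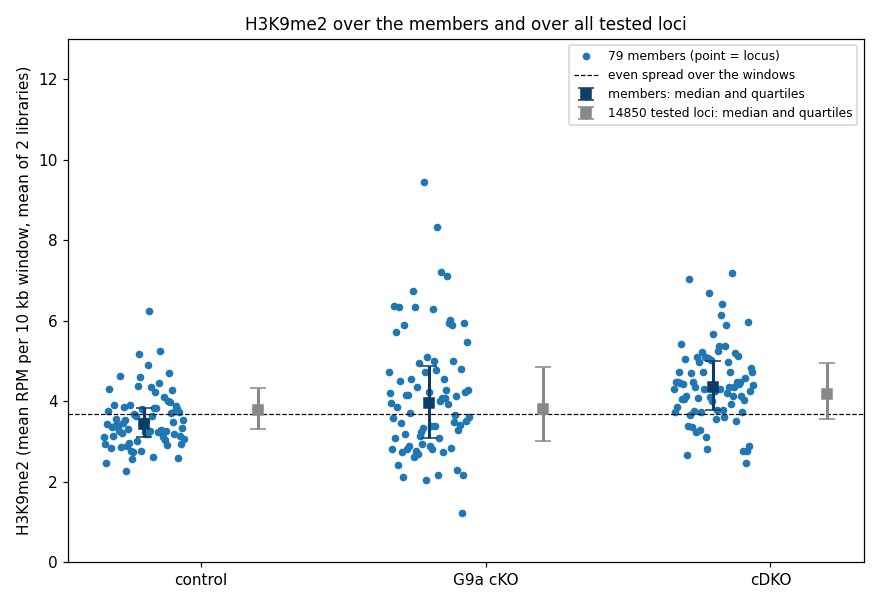
H3K9me2 in mean RPM per 10 kb window (vertical axis, mean of 2 libraries) in control, G9a cKO and cDKO oocytes. Blue points are the 79 members, dark squares with bars their median and quartiles, and grey squares the same for the 14850 tested loci. The dashed line is an even spread, 3.67, and the members' median lies below that of all loci in controls and above it in both mutants, as does the median of loci of at least 10 RPM of RNA, which is not drawn.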

How the data were processed

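The authors deposited 1 table per assay with 1 column per library, holding log2 RPM (reads scaled to 1000000 per library) for assembled oocyte loci (RNA) and for 10 kb windows (H3K9me2). The headers do not state the unit, which was read from the values: 100% of RNA values gave whole reads in 10 of 11 libraries (99.997% in G9a cKO replicate 3) within 0.01 read, and empty features stood at 0.9 read. The submitters' processing notes name Trim Galore, Bowtie2, HISAT2 2.1.0 and Bismark 0.19.0 and the build GRCm38, with no roles. How strand was counted is not given in the sources used here.

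All 38540 RNA loci were fitted together over the 11 libraries with limma 3.58.1 in R 4.3.3 (variance trend, robust moderation, 4 group means and no block), with Benjamini-Hochberg adjustment over all loci and a call at adjusted p under 0.05. Fold changes are on the deposited log2 scale. Windows overlapping a locus were averaged in RPM and fitted likewise for the 14850 named loci tested. 4 columns of the H3K9me2 table match no sample here and were not used, and input, IgG and bisulfite libraries were not analysed here. RNA depth was 1458868 to 2399680 reads. Genes named are members called in a mutant or for the difference, the most abundant member of each role, the 3 Aurora kinases, the 2 largest uncalled changes per mutant among members of at least 10 RPM, Ehmt1, Ehmt2 and at most 10 called partner genes; others are said to be chosen later. The members and gene lists were chosen with earlier results of these data known. Alternatives were another centring, pseudocount, filter, variance model, control set and each library left out. Scripts were tested on simulated data.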

Additional observations from a re-analysis of the deposited data

Results flagged for a closer look

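For 9 genes the effect in cDKO differed from that in G9a cKO by a test of the difference itself (limma, adjusted p under 0.05, log2 scale, cDKO effect minus G9a cKO effect). Toward lower in cDKO, the difference was −0.37 for Bub1b, −0.36 for Kif23 and −0.67 for Kif5c, and each had all cDKO libraries below all GKAQ controls. Toward higher, it was 0.73 for Spc25, 1.20 for Kif21b and 0.54 for Kif22. For Kif22 the 2 effects had opposite signs. Among partner genes it was −0.35 for Pcnt and 0.45 for Mastl, and for the targeted Ehmt1 it was −2.14. All G9a cKO libraries carry the GKAO prefix and all cDKO libraries GKAQ, so for all 9 genes prefix and mutant cannot be told apart in this difference. The call was lost under 11 of 17 alternatives for Mastl, and of 18 under 9 for Kif21b, 7 for Kif5c, 5 for Kif23, 4 for Spc25 and Kif22, 3 for Bub1b and 2 for Pcnt.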

How the results depend on the processing

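Over 16 to 21 alternatives for each of 88 gene and comparison pairs, 1431 of 1692 gene values kept their direction and their side of the threshold, 240 lost the call, 10 gained it and 11 changed sign. For G9a cKO the count of 2 became 4 over loci of at least 10 RPM only, 5 with all 6 controls as 1 group, and 0 with log2(RPM + 1) or without variance trend and robust moderation together (limma; 14 and 6 members at an unadjusted p under 0.05). The count was 2 with each library left out, but not always for the same members. Without GKAO control replicate 1, Kif2c lost its call and Kif22 gained one. For cDKO the count of 13 became 5 with log2(RPM + 1), 0 without trend and robust moderation (15 unadjusted) and 10 to 14 with a library left out. The split was 5 higher and 11 lower when centred on detected loci and 5 and 9 when centred on the upper quartile. Of all loci called in these 2 fits, 53.1% and 59.9% were higher. For the difference between the effects 6 became 0 with log2(RPM + 1), 0 with precision weights and 0 without trend and robust moderation (12, 13 and 7 unadjusted), and 2 to 13 with a library left out; the 13 came without GKAQ control replicate 1, where 38.2% of all loci were called. Between the control groups 19 became 3, 10 and 0 in the same order (26, 31 and 19 unadjusted), and 9 to 20 with a library left out. H3K9me2 counts were 0 with another window, minimum, pseudocount or centring and with each library left out. With the title number as a block for GKAO libraries, the G9a cKO count was 3, Kif22 being added.

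Signs changed only for uncalled values. In G9a cKO, Aurka was 0.013, Spc25 0.30 and Ehmt1 −0.057 with all 6 controls. With 1 library left out, Bub1b ranged from −0.12 to 0.00296, Plk2 from −0.58 to 1.11 and Ehmt1 from −0.065 to 0.21. With the title number as a covariate Kif21b was 0.0061 and Kif5c 0.0035. In cDKO, Aurka was −0.020 when centred on detected loci and −0.073 with all 6 controls. The cause was not tested. Loci of few reads, such as Plk2, limit what depth can show.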
